A study of Mus musculus with 2 samples.

Results

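The Hox genes are the homeobox transcription factor genes that lie in the 4 clusters Hoxa, Hoxb, Hoxc and Hoxd, and they were followed here in 1 Setd2 knockout and 1 wild-type library of mouse embryonic stem cells (mESCs). Members were the rows whose gene symbol is Hox, then a, b, c or d, then digits only, which gave 32 genes of the 17817 in the table. Hoxa held 10 of them, Hoxb 8, Hoxc 6 and Hoxd 8. Both lines were of mixed 129SV/C57BL/6 strain, were at passages 10 to 12 and had no specific treatment. They were grown on feeder cells and then moved to gelatin to deplete the feeders before RNA was taken. The SETD2 enzyme places the trimethyl mark on lysine 36 of histone H3. The sources used here do not say how the Setd2 gene was disrupted or whether the line was 1 clone. Neither genotype had a replicate, so no test was possible and each difference describes these 2 libraries only.

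Hox proteins tell the cells of the embryo where they are along the head-to-tail axis. Within a cluster the genes stand in order of their paralog number. Low-numbered genes are switched on early and act toward the head, and high-numbered genes are switched on late and act toward the tail and the limb tips. In embryonic stem cells the clusters are known to be kept nearly silent by Polycomb complexes, while many fibroblasts of the embryo keep Hox genes active.

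The deposited values were turned back into read equivalents, the number of sequenced bases over a gene in units of 76 bases. The knockout library held 52041700 of them and the wild-type library 56129800. Levels are given as CPM, read equivalents per 1000000 of that total, and 1 CPM is 52 read equivalents for the knockout and 56.1 for the wild type. Setd2 (gene number 235626, chromosome 9, 110451132 to 110521137, mm9) was at 38.5% of its wild-type level in knockout cells, with a 95% counting interval of 37.6 to 39.4%. Stem cell genes marked both libraries. Pou5f1, the core pluripotency factor gene, was at 544 CPM in knockout and 558 CPM in wild-type cells, and Sox2 at 417 and 458 CPM.

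A window at the listed start of Hoxd13 is shown as an example, chosen after values were seen. Its paralog group, the 13th, was higher in knockout cells in each measured gene. The same was true of groups 2, 3, 4, 7, 8, 10 and 12. The run is the 300 bases from 250 before to 50 after the listed start. It was read from the NCBIM37 assembly, the same as mm9, 5′ to 3′ on the gene's strand. Its last 50 bases open with ATG, the word of a start codon, so the listed start may not be where transcription begins. The window is therefore not shown to be the promoter. Capitals mark CG pairs, the places where DNA can be methylated and which are dense in promoters bound by Polycomb.
Hoxd13, chr2:74506117-74506416, plus strand: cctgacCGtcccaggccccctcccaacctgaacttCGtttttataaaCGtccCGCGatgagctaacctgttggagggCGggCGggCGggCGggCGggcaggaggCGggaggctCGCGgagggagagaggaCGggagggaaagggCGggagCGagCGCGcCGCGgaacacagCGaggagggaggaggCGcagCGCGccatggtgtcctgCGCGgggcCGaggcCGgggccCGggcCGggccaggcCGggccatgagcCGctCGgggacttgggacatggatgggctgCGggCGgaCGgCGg
The Hoxd13 window held 37 CG pairs, more than 91.2% of all windows. Over the 32 Hox windows the median was 16 CG pairs, and over the 17815 windows of all table genes it was 17. The TATA box word TATAAA was found in 8 of 32 Hox windows (25%), against 10.4% of all windows, searched on both strands, and that of Hoxd13 was one of the 8. The word TGATNNAT, written for joint binding of PBX and HOX proteins, was found in 7 of 32 (21.9%), against 5.96% of all windows. Of these 7 windows, 5 belonged to Hoxb, among them that of Hoxb7, and 2 to Hoxa. These matches describe letters and do not show that a protein binds there or that the windows are promoters.

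All Hox genes were weakly expressed in both genotypes. The 32 members added up to 28 CPM in knockout cells (exact Poisson 95% interval 26.6 to 29.5) and 16.6 CPM in wild-type cells (15.6 to 17.7). The sum was 1.68-fold higher in knockout cells (counting interval 1.55 to 1.83). In bulk RNA of this kind, a larger share of cells with Hox transcripts cannot be told apart from more transcripts per cell. Only 6 members reached 1 CPM in knockout cells and 3 in wild-type cells, while the median gene of the table stood at 11.3 CPM in knockout and 11 CPM in wild-type cells. All intervals here cover counting error only, not the variation between cultures or lines, and the reads carried no molecular identifiers, so they are not independent molecules.

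Of the 32 members, 25 were higher and 7 lower in knockout cells by any amount; with the knockout rescaled to a median log2 ratio of 0 or by a trimmed mean 23 were higher and 9 lower, since the ratios of Hoxa5 and Hoxa10 were then under 1, and with the upper quartile 24 and 8. Between 0.2 and 2 CPM 16 of 18 were higher, against 56.7% of the 2780 table genes in that range. Of these 18, 7 passed 0.2 CPM only through the knockout library and 0 only through the wild-type library. That count therefore leans toward higher ones. Of the 14 members at 0.2 CPM or more in wild-type cells, 12 were higher. Under 0.2 CPM 6 of 11 were higher, against 52.8% of 2163 genes. Over all 32 members, those listed at 0 in 1 library included, the counting interval of the ratio lay wholly above 1 for 13, wholly below 1 for 2, which were Hoxa11 and Hoxc9, and held 1 for 17. With a mean under 2 CPM the interval lay above 1 for 10 of 29 members and below 1 for 2, against 16.8% and 12.2% of the 4943 table genes with reads in at least 1 library in that range.

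For 2-fold counts 0.1 CPM was added to both levels before the log2 ratio was taken, which understates the folds of low genes, and a gene needed 0.2 CPM on average. That floor kept 21 members, of which 7 passed only through the knockout library and 0 only through the wild-type library, so the count of members that passed leans toward higher ones. Of the 21, 5 were at least 2-fold higher, against 3.84% of all 15300 genes compared, and 0 at least 2-fold lower, against 3.2% of them. The 5 were Hoxb7, Hoxc13, Hoxb2, Hoxb3 and Hoxd4. The count was 2 without members whose exons overlap other genes by over 10%, and 1 with 0.5 CPM added or at 3-fold. With no floor 7 of 32 were higher and 2 lower. Over the 15300 genes and the 2163 with reads but under 0.2 CPM, 734 were then higher and 605 lower. With 0.2 to 2 CPM, 4 of 18 Hox genes were at least 2-fold higher and 0 lower, against 12.9% and 7.63% of all genes in that range. Of these 4, Hoxb7 and Hoxb2 passed 0.2 CPM only through the knockout library, so this count leans the same way. Of the 14 members at 0.2 CPM or more in wild-type cells, 3 were at least 2-fold higher. The median log2 fold was 0.67 over the 21 Hox genes and 0.06 over all genes compared. Between 0.2 and 2 CPM it was 0.72 over the 18 Hox genes and 0.10 over all genes. Both Hox medians include the 7 members that passed only through the knockout library, so they lean the same way.

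**Figure D1:**
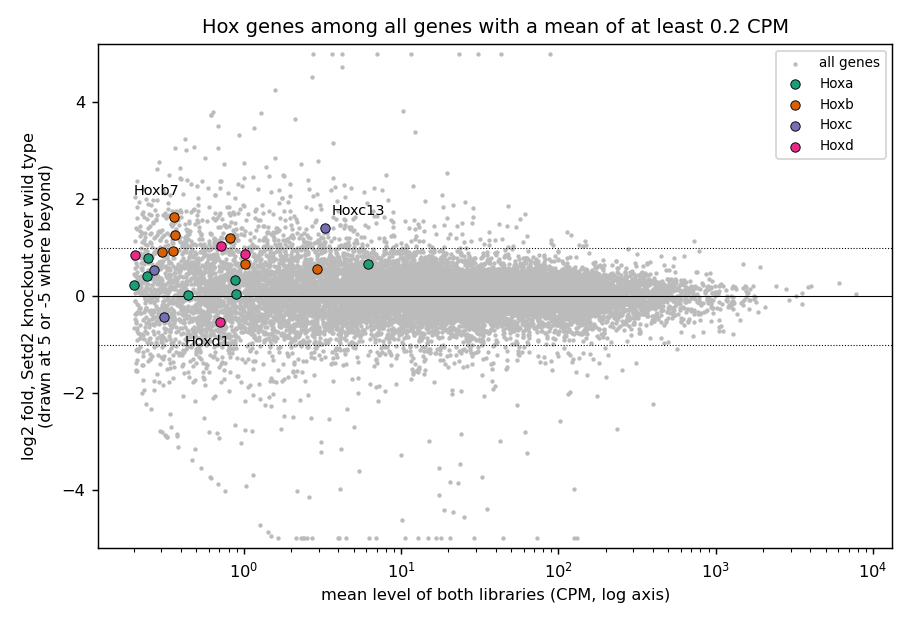
Log2 fold of Setd2 knockout over wild type (vertical axis) against the mean level in CPM (log axis), with grey points for the 15300 genes compared and coloured points for the 21 Hox genes over the floor of 0.2 CPM; dotted lines mark 2-fold. The Hox genes sit at the low end of the levels, with 19 above 0 and 2 below.

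The Hoxb cluster, on chromosome 11, was higher in knockout cells along its whole measured length. Its 8 members added up to 8.20 CPM in knockout and 4.27 CPM in wild-type cells, 1.92-fold apart (1.63 to 2.26). All 8 were higher, and the interval of each of the 8 lay above 1. Of the 200 other chromosome 11 genes between 0.2 and 2 CPM, 22% had an interval above 1, and their median log2 fold was 0.03. That set is not matched to the 8 members. Hoxb9 and Hoxb6 lie outside the range, with means of 2.93 and 0.098 CPM. Hoxb2, Hoxb5 and Hoxb7 passed 0.2 CPM only through the knockout library. The 8 genes share 1 locus and are not independent measurements.

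Toward the head end of Hoxb, Hoxb2 (96212946 to 96215328) was at 0.561 CPM in knockout and 0.175 CPM in wild-type cells, 3.20-fold higher (1.48 to 7.19). Hoxb2 acts in the hindbrain and its facial motor neurons. Hoxb3 (96184440 to 96209244), another hindbrain gene, was at 1.17 and 0.456 CPM in knockout and wild-type cells, 2.56-fold higher (1.57 to 4.17). Of the exon bases of Hoxb2 58.6%, and of those of Hoxb3 37.9%, also belong to the antisense gene model Hoxb3os. The sources used here do not say whether strand was used in counting, so reads of Hoxb2, Hoxb3 and the antisense transcript cannot be told apart. Without these 2 genes the Hoxb sum was 1.78-fold higher (1.49 to 2.13).

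In the middle of Hoxb the levels were lower and the ratios wide. Hoxb5, known for its part in the nerve cells of the gut, was at 0.425 CPM in knockout and 0.178 CPM in wild-type cells, 2.38-fold higher (1.08 to 5.61). Hoxb6 had 9 read equivalents in knockout and 1.33 in wild-type cells, a ratio of 7.30 whose interval ran from 1.35 to 425. Hoxb7 (96147960 to 96151477), a gene of the trunk, had 31.1 and 7 read equivalents, 0.597 CPM in knockout and 0.125 CPM in wild-type cells. That is 4.79-fold higher (2.06 to 12.9), and none of its exon bases within the span listed in the table overlap another gene model. Hoxb8, a gene of spinal and blood cell lineages, was at 0.497 and 0.214 CPM in knockout and wild-type cells, 2.32-fold higher (1.14 to 5.08). The annotated Hoxb7 model reaches beyond that span and covers 40.4% of the exon bases of Hoxb8, so reads there may be split between the 2 genes. The 4 central Hoxb genes together were 3.13-fold higher (2.07 to 4.96), a larger ratio than that of the 2 posterior ones, 1.54 (1.27 to 1.88), and these intervals do not overlap.

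At the tail end of the cluster stood its 2 most abundant members, also per kilobase of exon. Hoxb9 (96132644 to 96137907), which patterns the ribs, was at 3.52 CPM in knockout and 2.34 CPM in wild-type cells, 1.5-fold higher (1.19 to 1.88). Hoxb13 (96055675 to 96057913), a gene of the tail and the prostate, was at 1.27 and 0.759 CPM in knockout and wild-type cells, 1.67-fold higher (1.11 to 2.49). Within their listed spans, neither overlaps another gene model in its exons.

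**Figure D2:**
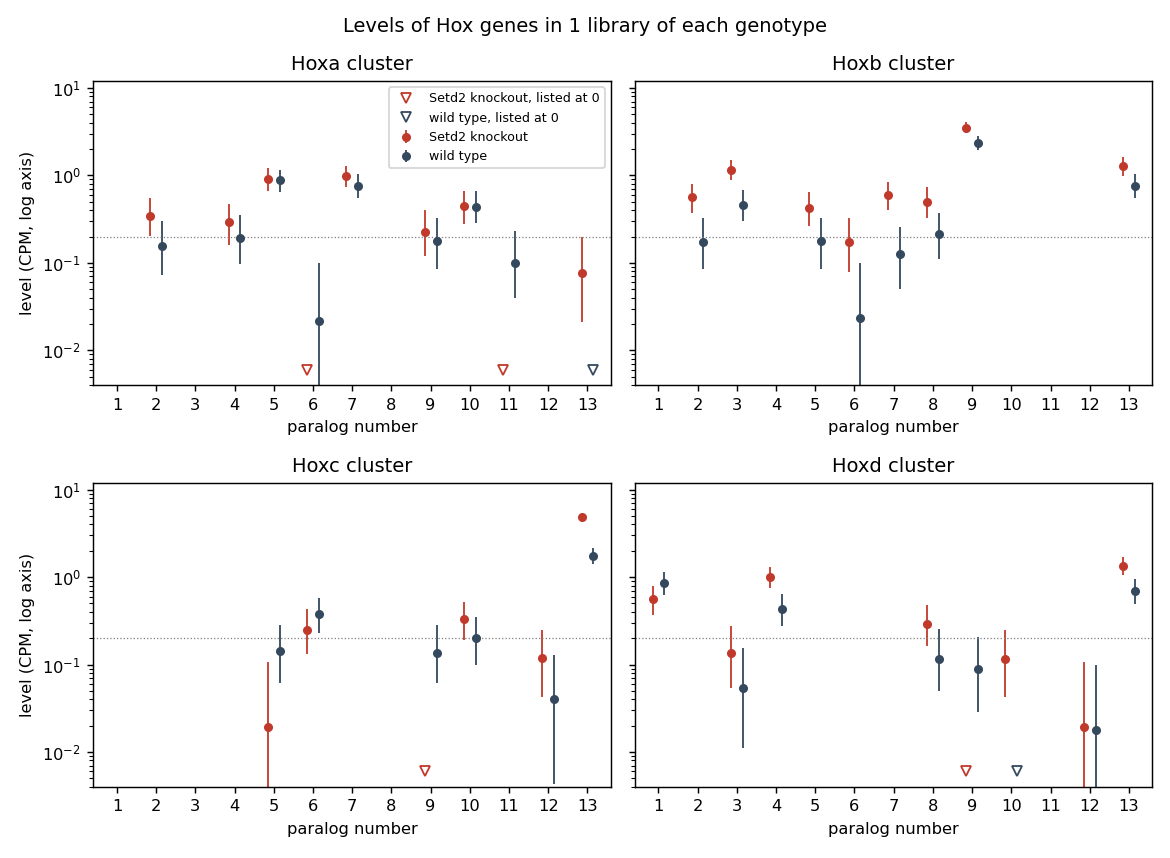
Level in CPM (log axis) of 31 Hox genes by paralog number, 1 panel per cluster, in the Setd2 knockout (red, left) and wild-type library (dark, right); bars are exact Poisson 95% intervals, open triangles are genes listed at 0 and the dotted line is 0.2 CPM. Of the genes drawn Hoxc13 and Hoxb9 stand highest, and in the Hoxb panel each knockout point lies above its wild-type point.

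Hoxc, on chromosome 15, differed from Hoxb in that its higher sum came from 1 gene. The 6 members added up to 5.56 CPM in knockout and 2.65 CPM in wild-type cells, 2.10-fold apart (1.72 to 2.59). Hoxc13 (102751562 to 102759245), the gene at the tail end of the cluster that is needed for hair and nails, was at 4.83 and 1.75 CPM in knockout and wild-type cells, 252 and 98.4 read equivalents. It was 2.76-fold higher (2.19 to 3.54) and had the most reads of the 5 members over 2-fold. Without Hoxc13 the other Hoxc genes together were at a ratio of 0.81 (0.52 to 1.28), so the direction of the cluster sum rested on that gene.

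The remaining Hoxc genes were near the limit of detection and mixed. Hoxc12 had 6.18 read equivalents in knockout and 2.26 in wild-type cells, and Hoxc10, a gene of lumbar motor neurons, 17.4 and 11.3. Hoxc10 was 1.66-fold higher with an interval that held 1 (0.736 to 3.94). Toward the head the order turned. Hoxc9, which acts in thoracic motor neurons, was listed at 0 in knockout cells and had 7.53 read equivalents in wild-type cells. A count of 0 there allows up to 0.0576 CPM, taking 3 read equivalents as the limit. Hoxc6 had 13 and 21 read equivalents in knockout and wild-type cells, a ratio of 0.668 (0.307 to 1.40), and Hoxc5 1 and 8, a ratio of 0.135 (0.00304 to 1.01). For Hoxc5 16.4% of exon bases belong to another model, Gm20398. The 2 central Hoxc genes together had a ratio of 0.521 (0.254 to 1.02), against 3.13 (2.07 to 4.96) for the central Hoxb genes, so these intervals lay apart.

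Hoxa, on chromosome 6, is described from 9 of its genes. They added up to 3.28 CPM in knockout and 2.72 CPM in wild-type cells, a ratio of 1.20 with an interval that held 1 (0.958 to 1.5). Of these 9 genes 7 were higher and 2 lower in knockout cells by any amount. Hoxa2, which gives identity to the second pharyngeal arch, was at 0.339 and 0.156 CPM in knockout and wild-type cells, 2.17-fold apart (0.920 to 5.45), and shares 15.9% of its exon bases with the Hoxa3 model.

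For the other Hoxa genes described the interval held 1, except that of Hoxa11. Hoxa5, needed in the lung and in neck and chest vertebrae, was at 0.909 CPM in knockout and 0.876 CPM in wild-type cells, a ratio of 1.04 (0.678 to 1.58). Hoxa7 was at 0.988 and 0.759 CPM, and Hoxa4 at 0.290 and 0.194 CPM, each pair in knockout and wild-type cells, and both intervals held 1. The same was true of Hoxa9, a gene of blood stem cells, at 0.224 CPM in knockout and 0.178 CPM in wild-type cells. Hoxa10, which acts in the uterus, had a ratio of 1.02 (0.538 to 1.82), from 0.448 CPM in knockout and 0.438 CPM in wild-type cells. At the limit of detection, Hoxa6 and Hoxa11 were listed at 0 in knockout cells and had 1.22 and 5.53 read equivalents in wild-type cells. The ratio interval of Hoxa11 ran from 0 to 0.916. Hoxa13, a gene of the digits, had 3.99 read equivalents in knockout cells and was listed at 0 in wild-type cells. An antisense model, Hoxa11as, covers 33.8% of the exon bases of Hoxa11.

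Hoxd, on chromosome 2, added up to 3.45 CPM in knockout and 2.25 CPM in wild-type cells, 1.53-fold apart (1.22 to 1.95). Hoxd1 (74601037 to 74603199), known for its role in pain-sensing neurons, was lower, at 0.557 and 0.854 CPM in knockout and wild-type cells. Its ratio was 0.653 with an interval that held 1 (0.396 to 1.05). Hoxd3 had 7 read equivalents in knockout and 3 in wild-type cells. Hoxd4, a gene of the neck vertebrae, was at 0.991 and 0.435 CPM in knockout and wild-type cells, 2.28-fold higher (1.41 to 3.96). The span of Hoxd3 contains Hoxd4, 67.4% of the exon bases of Hoxd4 are shared with the Hoxd3 model, and reads of these genes may be split between them. Without Hoxd3 and Hoxd4 the Hoxd sum was 1.32-fold higher, with an interval that barely cleared 1 (1.002 to 1.74).

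Of the remaining Hoxd genes, Hoxd13 had the highest level. Hoxd13 (74506367 to 74509655), needed for the digits and the genital tract, was at 1.35 CPM in knockout and 0.687 CPM in wild-type cells, 1.96-fold higher (1.29 to 2.94). Hoxd8 was at 0.288 and 0.116 CPM in knockout and wild-type cells, and its interval held 1 (0.887 to 6.70). Hoxd9 was listed at 0 in knockout cells and had 5 read equivalents in wild-type cells. Hoxd10, with a role in hindlimb motor neurons, had 6 read equivalents in knockout cells and was listed at 0 in wild-type cells, where a count of 0 allows up to 0.0534 CPM. Hoxd12 had 1 read equivalent in each library.

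**Figure D3:**
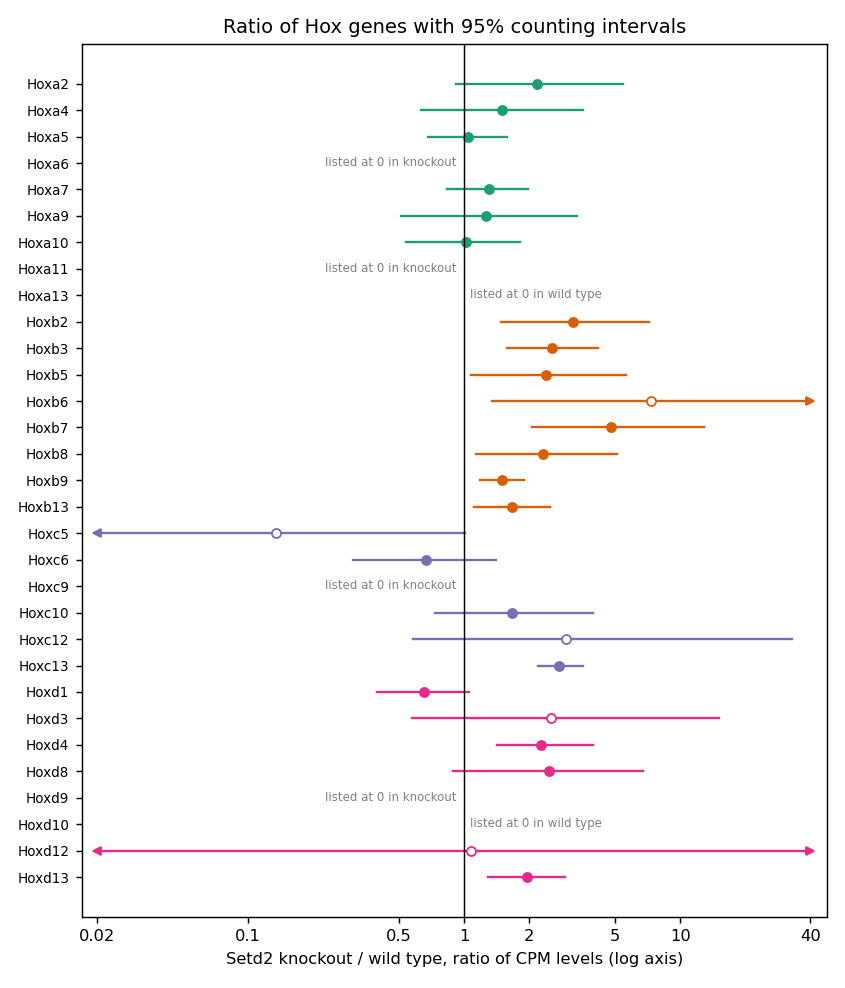
Ratio of the CPM levels, Setd2 knockout over wild type (log axis), for 31 Hox genes, coloured by cluster, with the 95% counting interval; open points have a mean under 0.2 CPM, arrowheads mark intervals beyond the axis, and genes listed at 0 in 1 library have no ratio. All 8 Hoxb intervals lie right of 1, while the Hoxa intervals drawn cross it.

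By paralog number, group 13 added up to 7.52 CPM in knockout and 3.20 CPM in wild-type cells, 2.35-fold higher (1.96 to 2.82), and each of its 4 measured genes was higher. Group 9 was at 3.74 and 2.74 CPM in knockout and wild-type cells, 1.36-fold apart (1.1 to 1.70), and its interval lay below that of group 13. As a share of all Hox reads, group 13, with Hoxc13 included, made up 26.9% in knockout and 19.2% in wild-type cells.

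The intervals of groups 2, 3 and 4 lay above 1, while those of groups 5 and 6 held 1. Group 2 was 2.71-fold higher (1.54 to 4.81), group 3 2.56-fold (1.62 to 4.05) and group 4 2.03-fold (1.35 to 3.20). Groups 5 and 6 had ratios of 1.13 (0.794 to 1.6) and 1.01 (0.529 to 1.84), so the interval of group 6 overlaps those of groups 2, 3 and 4, and that of group 5 those of groups 2 and 4. Group 7 was at 1.79 (1.25 to 2.60), group 8 at 2.38 (1.32 to 4.25) and group 10 at 1.41 (0.893 to 2.24). Each of these groups holds only 2 or 3 measured genes, and those of groups 2, 3 and 4 include the overlapping models named above. Read in blocks, groups 1 to 3 were 1.6-fold higher (1.39 to 1.83), groups 4 to 8 1.57-fold (1.3 to 1.89) and groups 9 to 13 1.83-fold (1.61 to 2.08). The 3 block intervals overlap, so no gradient along the axis was visible at this depth.

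**Figure D4:**
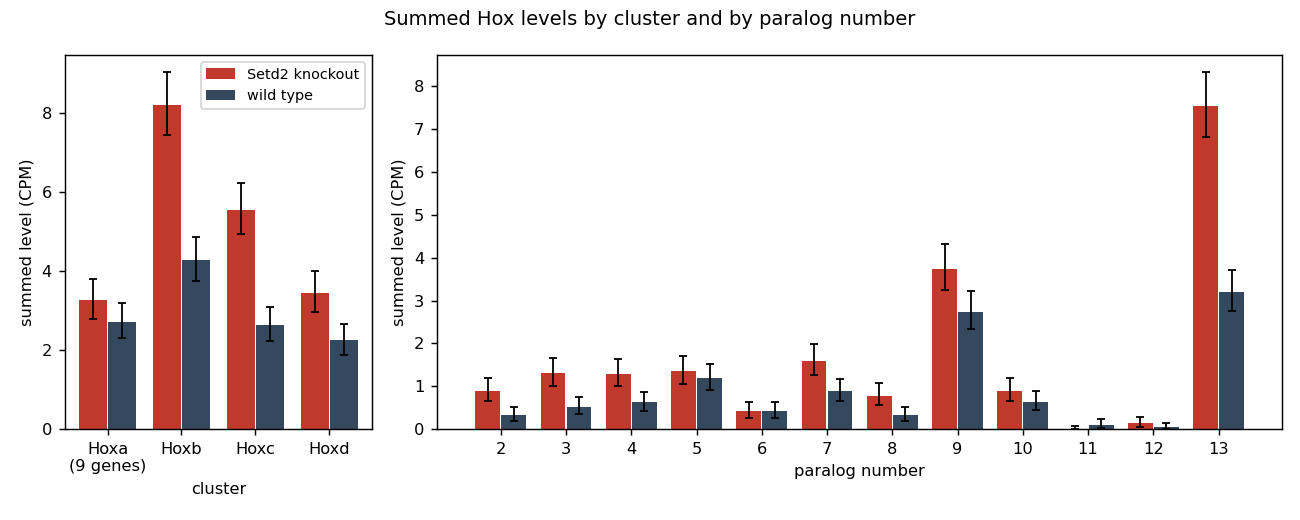
Summed Hox level in CPM by cluster (left, with 9 genes of Hoxa) and by paralog number from 2 to 13 (right) in the Setd2 knockout (red, left bar) and wild-type library (dark, right bar), with exact Poisson 95% intervals. All 4 cluster sums are higher in knockout cells, and of the paralog groups drawn 13 and 9 stand highest in both.

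Levels of different genes were compared per kilobase of exon. On that scale Hoxc13 was at 1.99 CPM per kb in knockout and 0.721 CPM per kb in wild-type cells. Hoxb9 was at 1.37 and 0.911 CPM per kb in knockout and wild-type cells, so the order of the 2 genes differed between the libraries. Hoxb7 was at 0.392 CPM per kb in knockout cells, against 0.0819 CPM per kb in wild-type cells. Hoxd1 stood at 0.299 CPM per kb in knockout and 0.458 CPM per kb in wild-type cells. For all 32 genes, each of 20 windows of 76 bases from the exons had no other place in the genome with up to 2 mismatches, those of paralogs included.

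Genes around the clusters did not share the difference as a list, but most stood at higher levels than the Hox genes. The 20 non-Hox rows within 200 kb of a cluster had 17 over the floor, with 1 at least 2-fold higher, 0 lower and a median log2 fold of 0.05. That 1 was Skap1, a T cell adaptor gene 111 kb from Hoxb, at 0.696 CPM in knockout and 0.276 CPM in wild-type cells, 2.52-fold higher (1.38 to 5.09). Lnp, beside Hoxd, was at 55.2 and 38.2 CPM in knockout and wild-type cells, 1.45-fold higher (1.37 to 1.53), and Calcoco1, beside Hoxc, 1.38-fold (1.31 to 1.46). Ttll6, 28.9 kb from Hoxb13, was 1.25-fold higher (1.17 to 1.34). Evx1, the homeobox gene next to Hoxa13, had 1 read equivalent in knockout cells and was listed at 0 in wild-type cells. Igf2bp1 was lower, at 768 and 955 CPM in knockout and wild-type cells, and Atp5g1 at 9.74 and 11.2 CPM.

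The proteins that bind DNA together with HOX proteins come from the TALE homeobox genes. All 9 were over the floor, with 0 at least 2-fold apart and a median log2 fold of 0.20. Meis2 was at 5.92 CPM in knockout and 3.18 CPM in wild-type cells, 1.86-fold higher (1.54 to 2.24). Pbx3 was 1.34-fold higher (1.20 to 1.49), and Meis1 was at 1.19 (0.917 to 1.56).

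Genes listed as acting upstream of the clusters were spread in both directions. Cyp26a1 was among them and is also in the retinoic acid list below. Of 12 over the floor, 3 were at least 2-fold higher and 1 lower, with a median log2 fold of 0.09. Cdx2, the caudal factor that switches on trunk Hox genes, was at 2.80 CPM in knockout and 0.539 CPM in wild-type cells. Its relatives did not share this, with Cdx1 at 3.80 and 3.61 CPM and Cdx4 at 0.803 and 1.44 CPM in knockout and wild-type cells. The primitive streak gene T was at 3.10 and 0.470 CPM and the signal gene Wnt3 at 3.51 and 1.56 CPM, in knockout and wild-type cells. Egr2, which acts on Hox genes in the hindbrain, was lower, at 1.43 CPM in knockout and 7.62 CPM in wild-type cells. Genes of the retinoic acid pathway, which opens the head end of the clusters, had 0 of 16 at least 2-fold apart and a median of -0.01. Its receptor gene Rara was at 54.0 and 85.6 CPM in knockout and wild-type cells and Rxra at 15.4 and 21.8 CPM. The enzyme gene Aldh1a3 was 1.79-fold higher (1.20 to 2.70) and the binding protein gene Crabp2 1.45-fold (1.25 to 1.69). Rarb and Cyp26a1, direct retinoic acid targets, had ratios of 1.11 (0.681 to 1.80) and 0.966 (0.518 to 1.86).

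Polycomb genes, whose products keep Hox clusters silent, were close as a list. Of 28 over the floor, 0 were at least 2-fold higher and 1 lower, with a median log2 fold of 0.19. Among the core subunits, Ezh2 was at 248 CPM in knockout and 244 CPM in wild-type cells, Suz12 at 485 and 433 CPM, Eed at 240 and 275 CPM and Rnf2 at 160 and 154 CPM. The accessory gene Phf19 was at 5.66 and 13.2 CPM in knockout and wild-type cells, a ratio of 0.428 (0.373 to 0.491). Jarid2, which helps to bring the complex to its targets, was at 839 and 1387 CPM, a ratio of 0.605 (0.598 to 0.612). Of the Polycomb readers, Cbx6 had a ratio of 0.668 and Cbx8, at 0.480 CPM in knockout and 0.238 CPM in wild-type cells, 2.01. The opposing Trithorax and MLL genes, whose products keep Hox genes on, had 0 of 16 at least 2-fold apart and a median of -0.33. Of these 16, 14 were below 0 and 2 above, against 6667 below and 8633 above of all 15300 genes compared. Mll1, the methyltransferase gene best known for sustaining Hox expression, was at 263 and 331 CPM in knockout and wild-type cells, a ratio of 0.796 (0.779 to 0.814). Setd1b had a ratio of 0.553, Mll2 0.576, Hcfc1 0.706 and Ash2l, on chromosome 8, 0.714.

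**Figure D5:**
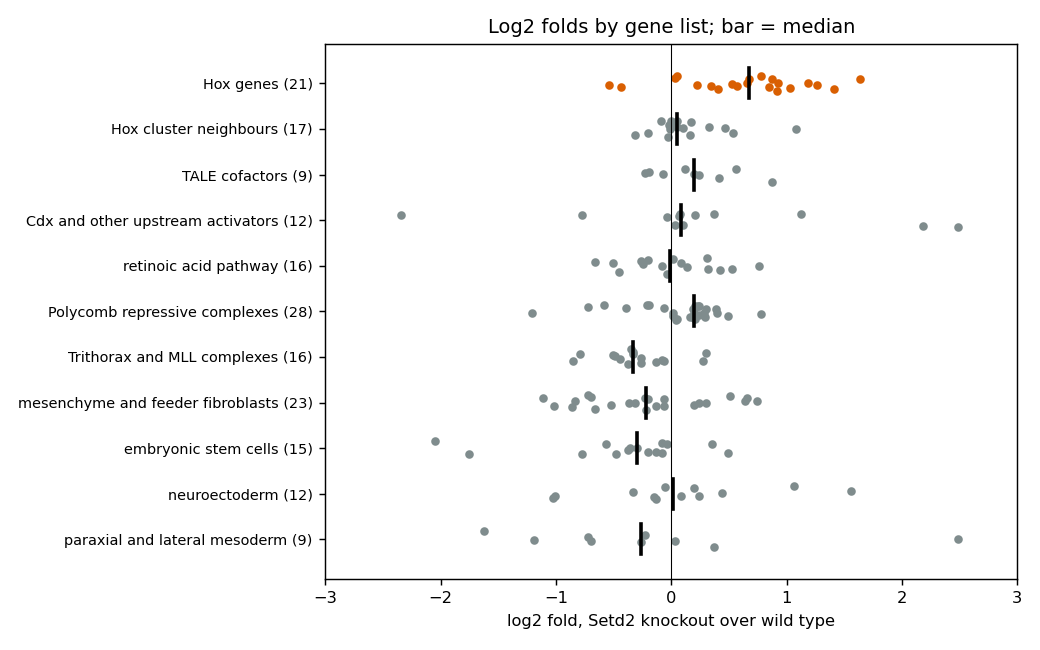
Log2 fold of Setd2 knockout over wild type for every gene averaging 0.2 CPM or more, by list, with the number of genes in brackets and a bar at each median. The Hox median of 0.67 stands to the right of the other medians, which run from -0.33 to 0.20.

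Cells other than stem cells that use Hox genes were read from their own markers. Of 28 mesenchyme and feeder fibroblast markers in the table, 23 were over the floor, with 0 at least 2-fold higher and 2 lower. Their median log2 fold was -0.22, with 7 above 0 and 16 below. Over all 15300 genes compared, 8633 were above 0 and 6667 below. Their summed level was 288 CPM in knockout and 326 CPM in wild-type cells. Col1a1, the main collagen gene of fibroblasts, was at 31.3 and 45 CPM in knockout and wild-type cells, and the limb mesenchyme factor gene Prrx1 at 2.70 and 5.97 CPM. Twist2 was at 0.442 and 0.998 CPM, Dcn at 0.340 and 0.699 CPM and Lox at 14.7 and 26.3 CPM, in knockout and wild-type cells. Other markers were higher, among them Pdgfrb at 10.7 and 6.72 CPM and the contractile protein genes Tagln at 33 and 21.1 CPM and Cnn1 at 7.69 and 4.55 CPM, in knockout and wild-type cells. Over the 28 markers the counting interval lay above 1 for 6, below 1 for 12 and held 1 for 10. The share of all genes at these levels with such intervals was not counted, so these counts have no background. The list thus moved in both directions, and its part in the Hox difference was not tested. Of the 28 markers, Lum was listed at 0 in knockout cells and had 4 read equivalents in wild-type cells, and no other marker was at 0 in either library.

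Markers of early tissues with Hox activity gave mixed values. Neuroectoderm had 2 of 12 genes at least 2-fold higher, 2 lower and a median of 0.02, and its summed level was 229 CPM in knockout and 215 CPM in wild-type cells. Pax3, of the dorsal neural tube, was at 1.04 and 0.285 CPM in knockout and wild-type cells and Nes at 126 and 60.2 CPM, while Gbx2 was at 25.2 and 51.4 CPM and Tubb3 at 17.6 and 35.6 CPM. Paraxial and lateral mesoderm had 1 of 9 higher (T), 2 lower and a median of -0.26, with a summed level of 27.6 CPM in knockout and 62.9 CPM in wild-type cells. Bmp4 was at 15.9 and 49.3 CPM in knockout and wild-type cells, Tbx20 at 2.65 and 6.17 CPM and Meox1 at 0.441 and 0.791 CPM. Msgn1 was at 0 in both libraries. The stem cell list had 0 of 15 higher, 2 lower and a median of -0.30, with Zfp42 at 68.1 and 283 CPM and Klf2 at 17.1 and 58.0 CPM in knockout and wild-type cells. Both lie on chromosome 8, whose 801 genes over the floor had a median of -0.35, and 55% of the windows of Zfp42 had another place in the genome. Utf1 had a ratio of 0.583, Tcl1 0.674 and Nanog 1.40. No Hox gene lies on chromosome 8, and the other genes of chromosomes 6, 11, 15 and 2 had medians of 0.11, 0.02, 0.04 and 0.07. The part of any of these cell types in the Hox difference was not tested.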

How the data were processed

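Per the labels' protocols, total RNA went into standard Illumina libraries after column extraction. The submitters' processing notes name TopHat 1.0.13, CASAVA 1.6.0 and mm9, with no role stated. The deposited table gives log2 values under headers that say RPKM. The values do not have that scale: turned back by 2 to the power of the value minus 1, 85.7% of the knockout and 85.9% of the wild-type values above 0 and under 200 are whole multiples of 1 base in 76, within 0.05 of a base. They were read as log2(x + 1) of read equivalents x, with no depth or length scaling. The step that made them, the counting of reads with several places and the use of strand are not given in the sources used here.

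Each library was taken to its genotype by its label and each column by its name. Of 17827 rows, the highest per symbol was kept, leaving 17817 genes. Levels are CPM of the library total. Ratios carry an exact conditional binomial (Clopper-Pearson) 95% interval on rounded read equivalents, and sums an exact Poisson one. With 1 library per group no p-value was computed. The fold, its floor and its threshold stand in the text. Exon bases come from GENCODE models of NCBIM37, clipped to each row's span, found for 94.6% of genes. Windows of 76 bases were aligned with minimap2 2.31, and a window was shared if another place had at most 2 mismatches or its own was not found. The procedure was tested on simulated data. Python 3.11.15, pandas 2.3.3 and scipy 1.17.1 were used. No other per-sample column was present.

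Members, lists and alternatives were chosen with earlier results of these data known. Named were Setd2, the members, up to 4 genes per list with the largest absolute fold and the list-defining genes. Evx1, Igf2bp1, Atp5g1, Msgn1, Lum, Pdgfrb, Tagln and Cnn1 were named after their values were seen. The printed window, the choice of summing 9 Hoxa genes and the pairs of intervals set side by side were chosen after values were seen. So were the level ranges used for background (0.2 to 2 CPM, under 2 CPM). Some values that this rule covers are not reported here. The alternatives were other pseudocounts, floors, thresholds and rescalings, summed rows and leaving out members that overlap other genes.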

Additional observations from a re-analysis of the deposited data

How the results depend on the processing

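No paired analysis was possible because there is only 1 library of each genotype, so none could be left out either. Leaving out the highest member was chosen after seeing the data. Of 182 recomputed values, 158 stayed within 1.5 times the reported count, or within the counting interval of a ratio or the order-statistic interval of a median (the range of members under 6 genes). Rescaling moved the log2 folds of all genes by 0.06 (median), 0.06 (trimmed mean) and 0.04 (upper quartile), and the Setd2 ratio, 0.385 as reported, was then 0.370, 0.369 and 0.374. The number of higher Hox genes, 5 as reported, was 1 with a pseudocount of 0.5, 1 with a pseudocount of 1, 1 with a floor of 1 CPM and 1 at 3-fold, 12 at 1.5-fold, and 2 without members whose exons overlap other genes by over 10%. The number of lower Hox genes was 2 with no floor, against 0, where the lower count over all genes was 605. The Hox median was 0.27 with a pseudocount of 1. Over all genes, the higher count of 588 was 291 with a pseudocount of 0.5, 183 with 1, 331 with a floor of 1 CPM, 1632 at 1.5-fold and 187 at 3-fold. The lower count of 490 was 321 with a pseudocount of 0.5, 254 with 1, 1365 at 1.5-fold and 169 at 3-fold. The sum ratio of the 9 Hoxa genes described was 1.20. Without its highest member the sum ratio was 2.43 for Hoxb, 0.809 for Hoxc, which turned its direction, and 1.5 for groups 9 to 13. Low depth limits all members: 3 read equivalents stand for 0.0576 CPM in the knockout and 0.0534 CPM in the wild-type library.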
